A study of Mus musculus with 3 samples.

Results

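The genes that specify primordial germ cells were examined in ALSCs, stem cells that grow from the mouse epiblast in Activin A and LIF. The 8 genes were taken by name (*Prdm1*, *Prdm14*, *Tfap2c*, *Dppa3*, *Nanos3*, *Ifitm3*, *Kit*, and *Dnd1*) from the 55421 named genes of the count table, and all 8 were found there once. The cells came from epiblasts of embryonic day 6.5, from ICR females mated with GOF/GFP males, whose transgene is an *Oct4* reporter. They were cultured on fibronectin in N2B27 with Activin A and LIF, and RNA-seq was done on 3 libraries (replicates 1, 2, and 3). All libraries share this background and medium, so no comparison between conditions was possible, and the labels do not say whether the libraries came from separate lines or embryos.

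Primordial germ cells are the founders of eggs and sperm. In the mouse they arise in the proximal epiblast around gastrulation, where BMP signals from the neighboring extraembryonic tissue, with WNT3, make a few epiblast cells switch on the transcription factors PRDM1 (BLIMP1), PRDM14, and TFAP2C. These 3 factors repress the somatic program and restore pluripotency genes. DPPA3 (STELLA), the RNA-binding proteins NANOS3 and DND1, the membrane protein IFITM3 (FRAGILIS), and the receptor KIT mark or maintain the cells that follow this path.

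In ALSCs, one of these genes was abundant and the others were low. *Ifitm3* was at 91.6 FPKM and above 96.1% of the 13211 protein-coding genes that had more than 3 counts in every library. The other 7 genes lay between 0.107 and 1.31 FPKM, all below the median of 5.07 FPKM of those protein-coding genes. FPKM is the count of a gene scaled to its length and to the library's total, and was computed from the deposited counts and the gene length of the table. Totals ran from 18037342 to 18724038 counts, so that 1 read on a gene of 1 kb was worth 0.0534 to 0.0554 FPKM. A level resting on 3 counts or fewer was treated as not detected, since 3 is about the one-sided 95% limit of a count of 0. The two-sided intervals given elsewhere reach somewhat higher at 0, and both cover counting error only. By this limit 6 of the 8 genes were detected in every library, *Prdm1* and *Dnd1* being the exceptions. Only *Ifitm3* and *Kit* reached 1 FPKM in every library. In bulk RNA a few cells with many transcripts and many cells with few cannot be told apart, so these levels say nothing of single cells.

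**Figure D1:**
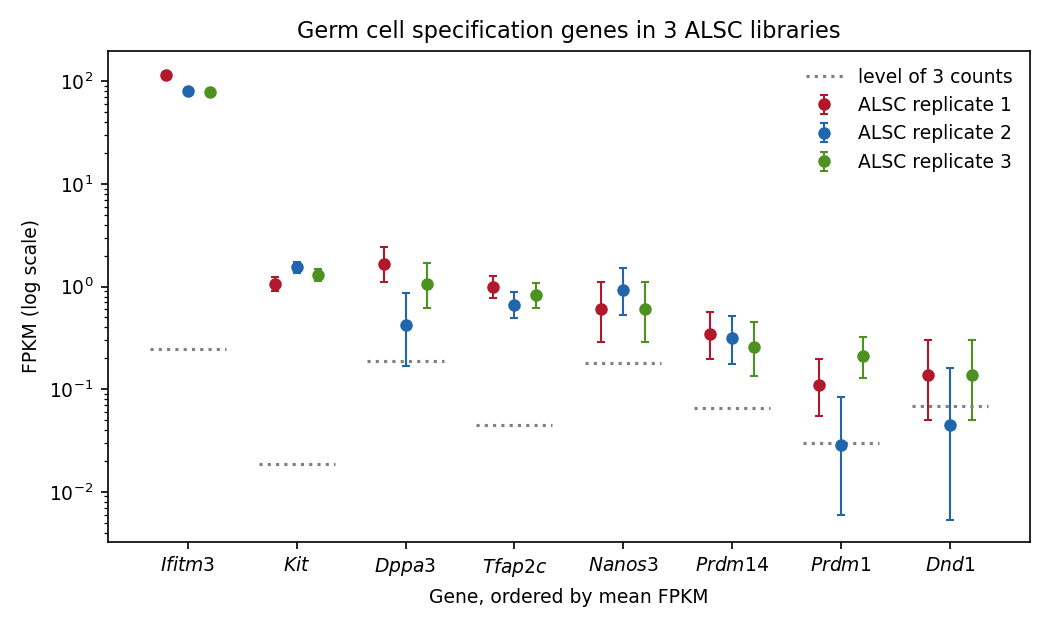
FPKM (log axis) of the 8 genes in each ALSC library, ordered by mean. Bars are exact 95% Poisson intervals of the count and dotted lines mark the level that 3 counts give in the library with the lowest total. *Ifitm3* lies between 79.0 and 114 FPKM, while the points of the other genes lie at 1.67 FPKM or below.

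The order of the means was *Ifitm3*, *Kit*, *Dppa3*, *Tfap2c*, *Nanos3*, *Prdm14*, *Prdm1*, and *Dnd1*. *Ifitm3* was 70.0 times as high as *Kit*, and its lowest library was far above the highest library of *Kit*. From *Kit* to *Nanos3* no neighboring pair could be separated, since their ranges over the 3 libraries overlapped. Beyond neighbors, the lowest value of *Kit*, 1.07 FPKM, was above the highest of *Tfap2c* (0.992 FPKM) and of *Nanos3* (0.925 FPKM). The wide range of *Dppa3*, from 0.419 to 1.67 FPKM, overlapped with all of these. *Nanos3* and *Prdm14* did not overlap, with 0.598 FPKM as the lowest value of *Nanos3* and 0.345 FPKM as the highest of *Prdm14*. *Prdm14* and *Prdm1* did not overlap either, at 0.260 against 0.209 FPKM, whereas *Prdm1* and *Dnd1* did. A sign test over 3 libraries cannot give a two-sided p below 0.25, so the order was described and not tested.

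Among the transcription factors, *Prdm14* (ENSMUSG00000042414, GRCm38 chromosome 1, 13113457 to 13127163, minus strand) encodes a PR domain zinc finger protein that represses DNA methyltransferases and FGF signaling genes. It had 16, 15, and 12 counts in replicates 1, 2, and 3, or 0.345, 0.312, and 0.260 FPKM, with a mean of 0.306 ± 0.0432 FPKM (SD, n = 3). Its SD was 14.1% of the mean, the smallest relative spread of the 8 genes. *Prdm1* (ENSMUSG00000038151, chromosome 10, 44437177 to 44528501, minus strand) encodes the zinc finger repressor BLIMP1, on which the germ cell program depends. It had 11, 3, and 21 counts, or 0.109, 0.0287, and 0.209 FPKM, with a mean of 0.115 ± 0.0902 FPKM (SD, n = 3). Replicate 2 stood at the limit for *Prdm1* and replicate 3 was the highest. *Tfap2c* (ENSMUSG00000028640, chromosome 2, 172549593 to 172558622, plus strand) encodes an AP-2 factor that is also made in trophoblast. Its 66, 46, and 55 counts gave 0.992, 0.668, and 0.829 FPKM, with replicate 1 highest and replicate 2 lowest. *Tfap2c* was above *Prdm14* and *Prdm1* in each of the 3 libraries, and its range did not overlap with theirs.

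*Prdm14*, *Prdm1*, and *Dppa3* were also targets of the study's RT-qPCR. The primers are given here because they show which part of each transcript that assay read and whether a copy could be read along with it. Each is written 5′ to 3′, with capitals for the bases that lie in the last exon of the longest coding transcript in GENCODE M21.
Prdm14 forward: cctgaacaagcacatgaga
Prdm14 reverse: TGCACTTGAAGGGCTTCTCT
Prdm1 (Blimp1) forward: GAGGATCTGACCCGAATCAA
Prdm1 (Blimp1) reverse: CATGGAGGTCACATCGACAC
Dppa3 (Stella) forward: aggctcgaaggaaatgagTTTG
Dppa3 (Stella) reverse: TCCTAATTCTTCCCGATTTTCG

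The *Prdm14* pair lay in exons 7 and 8 of 8, in the coding part, and enclosed 134 bases. Its reverse primer also matched transcripts of *Zfp12* and *Zfp146* without a mismatch, but its forward primer matched only *Prdm14*. Both *Prdm1* primers lay in the coding part of exon 8 of 8, so that their product of 102 bases crossed no exon junction. The forward primer of *Dppa3* crossed the junction of exons 3 and 4, and the product had 116 bases. That primer matched the copy *Dppa3-ps* with 0 mismatches, while the reverse primer had at least 10 there. The copies *Gm15620* and *Gm47576* had at least 1 and 2 mismatches to the forward primer and at least 8 and 10 to the reverse. Over all annotated transcripts, searched for exact matches only, each pair enclosed a product in its own gene and in no other gene.

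*Dppa3* (ENSMUSG00000046323, chromosome 6, 122626410 to 122630272, plus strand) encodes a maternal and germ cell protein that protects DNA from TET3-driven demethylation in the zygote. It had 27, 7, and 17 counts in replicates 1, 2, and 3, or 1.67, 0.419, and 1.06 FPKM. The mean was 1.05 ± 0.627 FPKM (SD, n = 3), the largest SD among the 7 low genes, with replicate 1 highest and replicate 2 lowest. Of the 50-base words of its longest coding transcript, 82.3% were found in no transcript of another gene. The copy *Dppa3-ps* on chromosome X held 17.2% of the words, and *Gm15620* and *Gm47576* held 2.68% and 2.30%. None of the 3 copies had a count in any library, which places no reads there but does not show how reads matching several places were handled. *Prdm1*, *Prdm14*, *Tfap2c*, *Nanos3*, and *Kit* shared no such word with another gene.

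*Nanos3* and *Dnd1* encode RNA-binding proteins that keep migrating germ cells alive. *Nanos3* (ENSMUSG00000056155, chromosome 8, 84173731 to 84185217, minus strand) had 10, 16, and 10 counts, or 0.598, 0.925, and 0.600 FPKM in replicates 1, 2, and 3. Its highest library was replicate 2, where *Prdm1*, *Dppa3*, *Tfap2c*, and *Dnd1* were lowest. Its paralogue *Nanos1* was at 1.15 ± 0.217 FPKM (SD, n = 3), and *Nanos2* had no count in any library. *Dnd1* (ENSMUSG00000044595, chromosome 18, 36763671 to 36766214, minus strand) had 6, 2, and 6 counts, or 0.138, 0.0443, and 0.138 FPKM, and its replicate 2 was below the limit of 3 counts. The gene overlaps by 140 bases with *Wdr55* on the opposite strand, whose counts were 1359, 1280, and 1222. No source used here says whether strand was used in counting, so it is not known whether reads of *Dnd1* and *Wdr55* in the overlap were kept apart.

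*Kit* (ENSMUSG00000005672, chromosome 5, 75574916 to 75656722, plus strand) encodes the receptor tyrosine kinase for stem cell factor, which germ cells need to survive and migrate. Its counts were 172, 259, and 210, and its levels 1.07, 1.55, and 1.31 FPKM, with replicate 1 lowest and replicate 2 highest. The level depended on the length used, since the table gives 8911 bases of exons and the longest coding transcript has 5241, with which *Kit* was at 2.23 FPKM. The gene of its ligand, *Kitl*, had 21, 28, and 28 counts and a mean of 0.237 ± 0.0358 FPKM (SD, n = 3), below *Kit* in every library. Of the related receptors, *Pdgfrb* was at 1.54 ± 0.120 FPKM (SD, n = 3), while *Pdgfra*, *Flt3*, and *Csf1r* had means of 0.0738, 0.0325, and 0.0156 FPKM.

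*Ifitm3* (ENSMUSG00000025492, chromosome 7, 141009586 to 141010770, minus strand) encodes a small interferon-induced transmembrane protein that was used early on to find epiblast cells competent for the germ line, and that restricts entry of viruses. It had 1404, 1032, and 966 counts, or 114, 81.3, and 79.0 FPKM in replicates 1, 2, and 3, with a mean of 91.6 ± 19.9 FPKM (SD, n = 3). Replicate 1 stood above the other libraries, which were close to each other. *Ifitm3* made up 94.7% to 95.9% of the summed FPKM of the 8 genes in each library, so that a sum over these genes is in effect the level of *Ifitm3*.

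Its neighbors in the *Ifitm* cluster on chromosome 7 were abundant too. *Ifitm2* (140954837 to 140955987) was at 213, 184, and 175 FPKM, and *Ifitm1* (140967221 to 140969825) at 35.6, 28.8, and 29.6 FPKM in replicates 1, 2, and 3. In each library *Ifitm2* was therefore highest, *Ifitm3* next, and *Ifitm1* lowest of the 3. The level of *Ifitm3* was 0.538, 0.441, and 0.452 times that of *Ifitm2* in replicates 1, 2, and 3. The other family members *Ifitm5*, *Ifitm6*, and *Ifitm7* had means of 0.404, 0.0605, and 0.169 FPKM. Reads of *Ifitm3* could be shared within the family, since 90.0% of its 50-base words were its own, with 3.18% found in *Ifitm2* and 2.38% in *Ifitm1*. The largest share, 4.61%, was found in *Gm7676* on chromosome 8, and *Gm11951* and *Gm45717* held 3.18% each. These last 3 genes had no count in any library.

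As *Ifitm* genes respond to interferon, a list of 6 other interferon response genes was set beside them. *Bst2*, which encodes the antiviral protein tetherin, was at 175 ± 30.1 FPKM (SD, n = 3). *Isg15*, a ubiquitin-like modifier, was at 2.37 ± 1.02 FPKM, and *Oas1a*, a sensor of double-stranded RNA, at 1.21 ± 0.0498 FPKM (SD, n = 3 for each). *Irf7* had a mean of 0.122 FPKM, and *Ifit1* and *Ifit3* never exceeded 3 counts. High levels in this list were thus limited to *Bst2*, as the *Ifitm* cluster was to *Ifitm1* to *Ifitm3*.

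**Figure D2:**
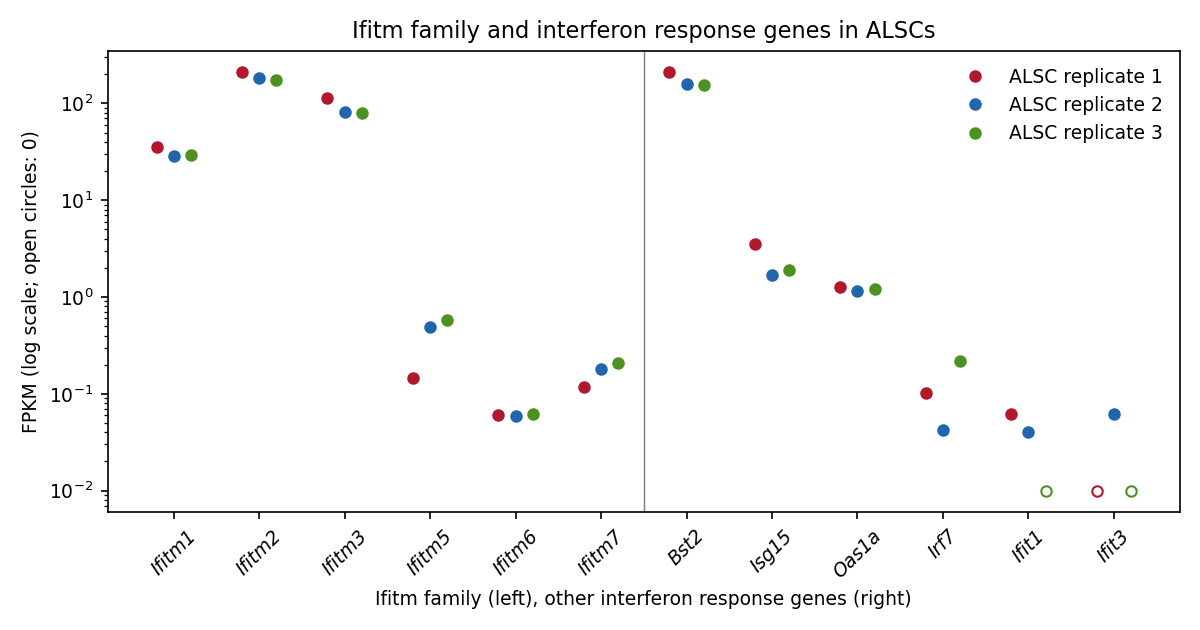
FPKM (log axis) in each ALSC library of 6 *Ifitm* genes (left) and 6 other interferon response genes (right). Open circles mark libraries with no count. *Ifitm1*, *Ifitm2*, *Ifitm3*, and *Bst2* lie at 28.8 FPKM or above in every library and the other genes at 3.54 FPKM or below.

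The interferon-stimulated response element, searched as GAAANNGAAA on both strands, was looked for in RefSeq's promoters of GRCm38.p6, which run from 250 bases before to 50 after a gene's start. It was present in 3.49% of 27025 promoters. Of the 8 genes, *Prdm1*, *Nanos3*, *Ifitm3*, and *Kit* had a promoter in that table, and only that of *Ifitm3* held the motif. The promoters searched for *Prdm1* (44458699 to 44458998) and *Nanos3* (84176503 to 84176802) lay inside the gene. They were not at the gene starts that the coordinates above give, and those were not searched. The promoter of *Ifitm3* held 2 matches, starting at bases 3 and 20 of the RefSeq transcript. The promoter of *Ifitm2* held 1 match, 46 bases before the start, and that of *Ifitm1* held none. Of the 6 promoters matched for the interferon list, 5 held it, those of *Bst2*, *Isg15*, *Ifit1*, *Ifit3*, and *Oas1a*. The motif was therefore present both in genes that were high (*Bst2*, *Ifitm3*) and in genes near 0 (*Ifit1*, *Ifit3*). The stretches of 30 bases around the matches are shown with the motif in capitals, on the minus strand at chr7:141010714-141010743 for *Ifitm3* and at chr7:140955979-140956008 for *Ifitm2*. A match is only a run of letters, and no binding was measured.
Ifitm3: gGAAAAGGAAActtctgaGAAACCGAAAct
Ifitm2: gGAAAAGGAAAttgctagagaaagggcggg

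The spread between the libraries was then tested gene by gene. A chi-square test of homogeneity on the counts, against library sizes scaled with edgeR's TMM factors, was made for genes whose counts summed to 10 or more, and adjusted by Benjamini-Hochberg over all of them. It sets the spread against counting error only, so ordinary variation between cultures passes it. The counts of 4 of the 8 genes varied (adjusted p below 0.05), against 47.2% of all genes tested, so the share was near that of the table as a whole. The adjusted p was 3.17e-29 for *Ifitm3*, 0.00208 for *Prdm1*, 0.00322 for *Dppa3*, and 0.012 for *Kit*. *Tfap2c*, *Dnd1*, *Nanos3*, and *Prdm14* did not pass, with adjusted p of 0.11, 0.368, 0.585, and 0.762. With an exact multinomial test for low counts, an alternative added after the data had been seen, the same 4 genes passed, against 47.4% of all genes.

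Replicate 1 differed from the other libraries across the whole table, and the test between replicates 2 and 3 alone called 8.11% of the genes. Without replicate 1, only *Prdm1* of the 7 members then tested still varied (adjusted p = 0.00412). For *Ifitm3*, *Kit*, and *Dppa3* the adjusted p between replicates 2 and 3 was 0.904, 0.33, and 0.177. Without replicate 2, *Ifitm3* alone varied (adjusted p = 6.26e-22), against 42.9% of all genes, with 0.175 for *Prdm1*, 0.184 for *Dppa3*, and 0.202 for *Kit*. Without replicate 3, 5 of the 7 members then tested varied, against 46.7% of all genes, as *Tfap2c* passed as well (adjusted p = 0.0393). The call for *Ifitm3* thus needed replicate 1, that for *Prdm1* needed replicate 2 with its 3 counts, and those for *Kit* and *Dppa3* needed both. Without replicate 2 the mean of *Prdm1* was 0.159 FPKM, and without replicate 3 it was 0.0689 FPKM.

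Of the interferon response genes, 3 of the 4 that could be tested varied, beside 47.2% of all genes, and *Bst2* and *Isg15* were highest in replicate 1, as *Ifitm3* was. Over the whole table, 3760 of the 8003 genes that varied were highest in replicate 1. The summed level of the 6 genes was 215, 164, and 158 FPKM in replicates 1, 2, and 3, of which *Bst2* alone made up 210, 161, and 155 FPKM. Between replicates 2 and 3 only *Irf7* varied (adjusted p = 0.0424, chi-square test), beside 8.11% of all genes. *Irf7* had 7, 3, and 15 counts and so was highest in replicate 3, and *Oas1a*, which did not vary, had 43, 41, and 41. The part of the interferon response genes in the difference of *Ifitm3* was not tested.

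Gene length moved with the difference of replicate 1. The 10577 genes that averaged 100 counts or more were divided into 10 groups of equal size by length. The median log2 ratio of replicate 1 to the mean of the others was 0.365 in the group of the shortest genes and -0.433 in that of the longest. *Ifitm3*, in the shortest group with 678 bases, had a log2 ratio of 0.584, and *Ifitm1* and *Ifitm2*, in the same group, had 0.357 and 0.315. *Bst2* and *Isg15* were in this group too, with 0.48 and 1.06. *Dppa3*, also in that group, had a ratio of 1.25, but *Nanos3* one of -0.278. *Kit*, with 8911 bases, had -0.352 against a median of -0.268 in its group, and *Prdm1* had -0.062 against -0.129. For *Prdm1* the mean of the others joins 3 counts in replicate 2 and 21 in replicate 3. *Tfap2c*, *Dnd1*, and *Prdm14* had 0.475, 0.658, and 0.341 against medians of 0.0769, 0.259, and 0.148. The medians rest on genes of high counts, while *Prdm1*, *Dppa3*, and *Nanos3* had 35, 51, and 36 counts in total. The part of length in these differences was not tested.

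**Figure D3:**
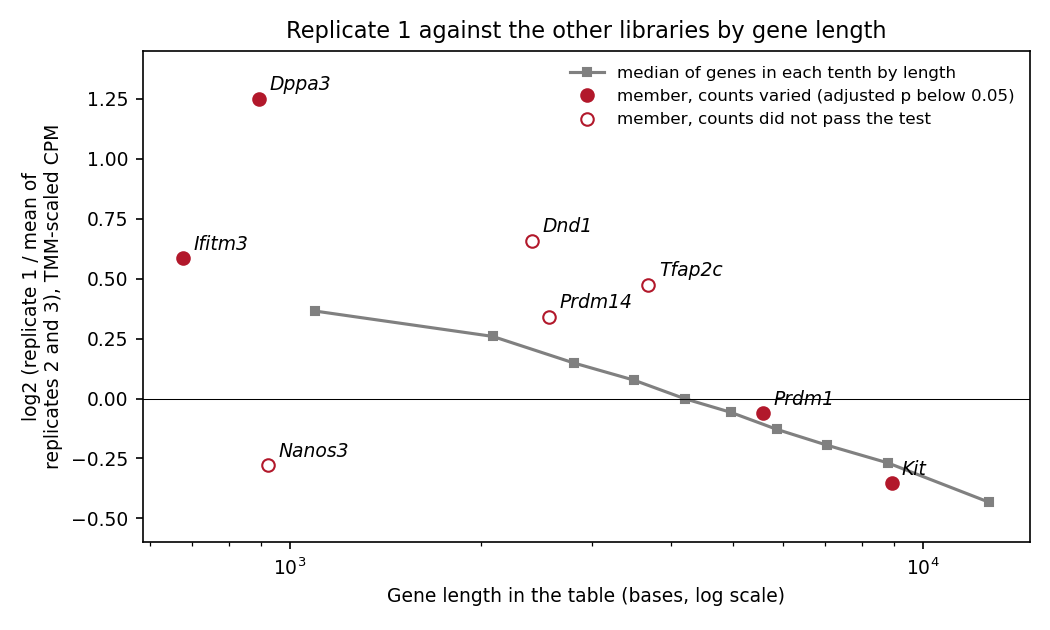
Log2 ratio of replicate 1 to the mean of replicates 2 and 3 (TMM-scaled counts) against gene length (log axis) for the 8 genes. The grey line joins the medians of 10 groups of equal size by length, over genes averaging 100 counts or more, and falls from 0.365 to -0.433. Filled points are genes whose counts varied between the libraries. *Dppa3* lies farthest above the line and *Nanos3* farthest below it.

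Around the 8 genes, the signals and machinery of germ cell specification were described with lists of 55 other genes. In all, 25 of the 55 reached 1 FPKM in every library, and 9 never exceeded 3 counts. Their median level was 0.754 FPKM, against 0.769 FPKM for the 8 genes. The counts of 20 of the 44 genes tested varied between the libraries, beside the 47.2% of all genes, and 5 did without replicate 1, beside 8.11% of all genes. Of the 8003 genes of the table that varied, 3751 were lowest and 3760 highest in replicate 1.

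Of 8 ligand genes, 2 reached 1 FPKM in every library. *Bmp4*, the main inducing signal, was at 4.13 ± 0.301 FPKM (SD, n = 3) and *Wnt3*, which makes the epiblast responsive to it, at 2.33 ± 0.304 FPKM (SD, n = 3). *Bmp8b*, which acts with BMP4, was at 0.543 ± 0.186 FPKM (SD, n = 3), and *Wnt3a* had at most 2 counts. Of the 7 ligand genes tested, 2 varied, beside 47.2% of all genes. The receptors and transducers were better represented, with 8 of 9 genes at 1 FPKM or more in every library. *Smad4*, the transducer shared by BMP and Activin signals, was highest at 29.0 ± 4.38 FPKM (SD, n = 3). The type I receptor gene *Bmpr1a* was at 17.5 ± 1.88 FPKM and *Smad5*, a BMP effector, at 9.75 ± 1.42 FPKM (SD, n = 3 for each). The effector *Smad9* had 0, 6, and 6 counts. The counts of 4 of the 9 varied, beside 47.2% of all genes, and all 4 were lowest in replicate 1, as were 3751 of the 8003 genes called in the table.

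Of 7 regulators and partners, 6 reached 1 FPKM in every library. *Lin28a*, whose product blocks let-7 and so releases *Prdm1*, was highest at 157 ± 6.74 FPKM (SD, n = 3). *Prmt5*, the arginine methyltransferase that binds PRDM1, was at 50.3 ± 3.71 FPKM, and *Cbfa2t2*, the corepressor that PRDM14 needs, at 11.2 ± 1.33 FPKM (SD, n = 3 for each). Both were above the factor they act with in every library. *Otx2*, which restrains entry into the germ line, was at 5.08 ± 0.472 FPKM, and the mesoderm gene *T*, which activates *Prdm1* and *Prdm14* downstream of WNT, at 0.754 ± 0.166 FPKM (SD, n = 3 for each). The counts of 4 of the 7 varied, beside 47.2% of all genes, and these 4 too were lowest in replicate 1, the side of 3751 of the 8003 called.

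Of 8 pluripotency genes that germ cells share with the epiblast, 6 reached 1 FPKM in every library. They ranged up to *Pou5f1*, at 648 ± 25.3 FPKM (SD, n = 3), and included *Nanog* at 171 ± 18.0 FPKM (SD, n = 3). *Fut4* had no count in any library. Of the 6 tested, 5 varied, beside 47.2% of all genes, and 4 of them were highest in replicate 1, beside 3760 of the 8003 called. None of 9 genes of later germ cells reached 1 FPKM in every library, and *Dazl*, *Mael*, and *Nanos2* had no count at all. *Ddx4* (VASA) had 4, 6, and 5 counts, and *Sycp3*, of the meiotic chromosome axis, had 14, 3, and 18. Of the 5 later germ cell genes tested, 1 varied, beside 47.2% of all genes. It was *Sycp3*, with replicate 2 lowest (adjusted p = 0.00965, chi-square test).

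**Figure D4:**
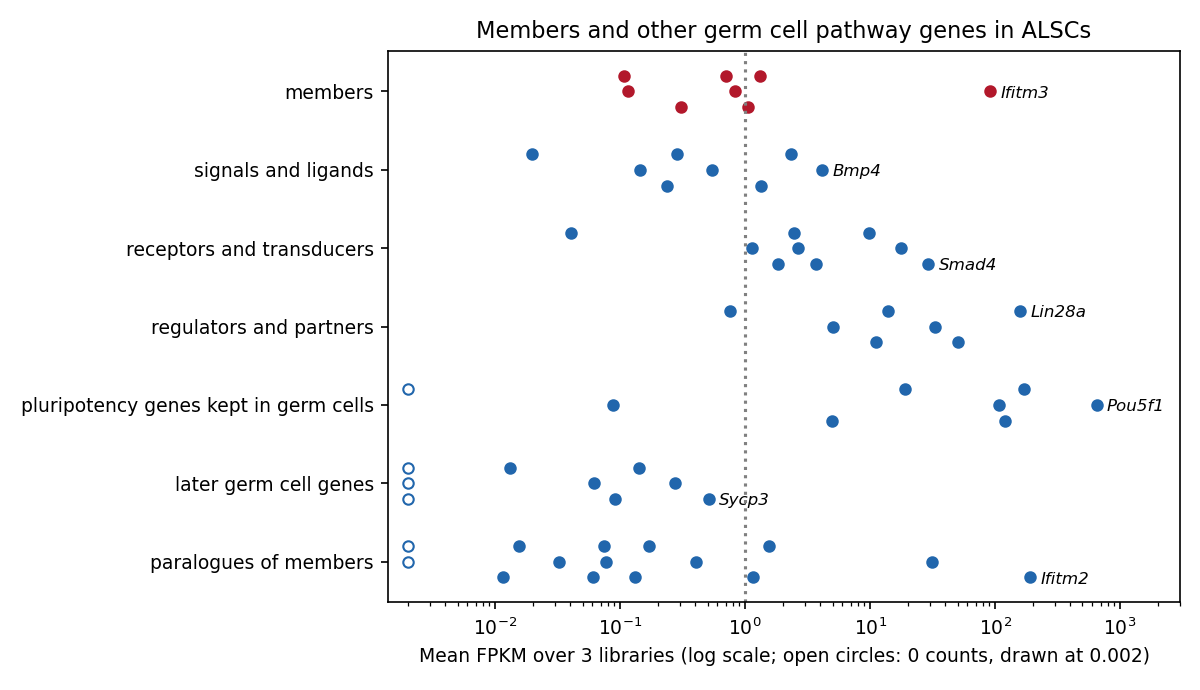
Mean FPKM over the 3 ALSC libraries (log axis) of the 8 genes (red) and of the other pathway genes by list (blue), with the highest gene of each list named and a dotted line at 1 FPKM. Open circles are genes with no count. Later germ cell genes all lie below 1 FPKM, while 8 of 9 receptors and transducers reach it in every library.

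Several of the 8 genes are also expressed in tissues next to the epiblast, so markers of those tissues were read in the same libraries. All 8 epiblast markers reached 1 FPKM in every library, and 1 of 6 naive pluripotency markers did. The label reads embryonic stem cell, and of these 6, *Zfp42* and *Tbx3* had 3 counts or fewer in each library, *Nr0b1* was at 1.74 FPKM, and *Esrrb*, *Tfcp2l1*, and *Klf4* were at 0.788, 0.717, and 0.342 FPKM. Of 9 trophoblast markers, which matter for *Tfap2c*, 6 never exceeded 3 counts, *Elf5*, *Cdx2*, and *Tpbpa* among them. The list's summed level was 3.83 to 4.18 FPKM, mostly from *Ascl2* at 3.10 FPKM, with *Krt7* at 0.434 and *Plet1* at 0.366 FPKM. Of 8 endoderm markers, which matter for *Prdm1*, 4 never exceeded 3 counts, including *Ttr*, *Afp*, and *Apoa1*. *Cer1* and *Foxa2* reached 1 FPKM in every library, and the list summed to 6.86 to 8.04 FPKM. *Foxa2* had 84, 61, and 109 counts and so was lowest in replicate 2 and highest in replicate 3, as *Prdm1* was. It varied between replicates 2 and 3 (adjusted p = 0.00199, chi-square test), beside 8.11% of all genes. This order was not particular to endoderm markers. *Sycp3* and *Irf7* had it too and also varied between replicates 2 and 3 (adjusted p = 0.0138 and 0.0424, chi-square test). Of the 4 endoderm markers tested over all libraries, 1 varied, beside 47.2% of all genes. The other endoderm markers tested did not vary and ran otherwise, *Cer1* with 138, 193, and 160 counts, *Sox17* with 26, 23, and 21, and *Gata6* with 11, 13, and 10. Whether the cells that carry *Foxa2* transcripts also carry those of *Prdm1* was not tested. Of 5 blood markers, which matter for *Kit*, 3 never exceeded 3 counts (*Ptprc*, *Tal1*, and *Hba-x*). *Runx1* had 49, 61, and 37 counts and *Gata1* 20, 22, and 8, and the list summed to 0.365 to 0.795 FPKM.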

How the data were processed

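Poly(A) RNA of 3 ALSC libraries was sequenced as paired-end reads and mapped by the authors to GRCm38, with HISAT2 2.0.5 named in the submitters' processing notes. The counting program, its use of strand, and its handling of reads with several matches are not given in the sources used here. The authors deposited raw counts per gene without normalization. The table has 55738 rows. The 317 rows without a gene name, with 0.165% to 0.182% of the counts, were left out. Another 3 count columns match no sample of the series and were not used in any step.

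FPKM was computed from the counts, with 95% exact Poisson intervals. TMM factors came from edgeR 4.0.16 and size factors from DESeq2 1.42.0 (R 4.3.3), the rest from Python 3.11.15 with SciPy 1.17.1. With 1 condition no contrast could be fitted, and the chi-square test across libraries, tested on simulated counts, was used. The exact multinomial test covered genes with up to 200 counts in total. Gene coordinates were those of GENCODE M21. Shared words of 50 bases were searched in its transcripts on both strands. The 8 genes and all lists were chosen with earlier results of these data known. From each list, at most 4 genes were meant to be given with values (the highest, the lowest, and those acting on a member), and any further ones were picked after their values were seen. One gene of the interferon list is not reported here and enters none of its counts. No search was made for genes with a similar pattern, since 3 libraries of 1 condition give 3 values, and the likeness of *Foxa2* to *Prdm1* and of *Bst2* and *Isg15* to *Ifitm3* was seen in the values. Alternatives covered scaling, gene length, thresholds, and leaving out each replicate.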

Additional observations from a re-analysis of the deposited data

How the results depend on the processing

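No paired analysis was possible because the series holds 1 condition. TMM library sizes, DESeq2 size factors, and a total without mitochondrial genes left each of the 8 levels within 1 SD. With the length of the longest coding transcript in place of the table's, *Tfap2c* moved to 1.02 FPKM, *Nanos3* to 0.896, *Kit* to 2.23, and *Dnd1* to 0.177, because fewer bases enter the division. At a limit of 0.5 FPKM, 4 genes passed in every library, in place of 2 at 1 FPKM. Leaving out replicate 1, 2, or 3 gave 1, 1, and 5 genes whose counts varied, beside 8.11%, 42.9%, and 46.7% of all genes tested. *Dnd1* had too few counts to be tested without replicate 1 or without replicate 3. Across these settings, 3 to 5 neighboring pairs in the order of levels did not overlap. With all libraries, 4 genes varied, beside 47.2% of all genes, and 3 pairs did not overlap. Without replicate 2, all 8 genes were above 3 counts in both remaining libraries, against 6 in all 3. *Prdm1* was at 0.0689 FPKM without replicate 3 and 0.159 without replicate 2, and *Dppa3* at 0.738 without replicate 1. Depth limited *Prdm1*, *Prdm14*, *Nanos3*, *Dppa3*, and *Dnd1*, which had 14 to 51 counts over all libraries, and the 95% interval of *Dppa3* in replicate 2, for example, ran from 0.169 to 0.864 FPKM.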
